A study of Homo sapiens with 24 samples.

Results

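Aminoacyl-tRNA synthetases join each amino acid to its tRNA, the step that supplies the ribosome with building blocks. Listed symbols were looked up in the gene-symbol column of the deposited count table, and 38 of 39786 genes were taken: 20 cytosolic synthetase genes, 16 mitochondrial synthetase genes (symbols ending in 2) and 2 scaffold genes, AIMP1 and AIMP2. All 38 symbols were found. Of them, 36 were tested in every comparison, and the valine enzymes VARS and VARS2 were not.

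The measurements are RNA-seq of cultured human cancer cells, with 8 groups of 3 libraries and 24 libraries in all. The cells were 5637 (bladder carcinoma) and OVCAR8 (ovarian carcinoma), each used as a neratinib-resistant derivative (NR) and as its parental line. Neratinib blocks the kinases of EGFR, ERBB2 and ERBB4 irreversibly. Within each line the groups were NR cells with neratinib, NR cells with control, parental cells with neratinib and parental cells with control, all for 24 h, and the neratinib dose was 600 nM in 5637 and 1 µM in OVCAR8. NR cells had been without drug for 1 week before they were seeded. Dishes were seeded in triplicate, and nothing says that they came from separate cultures. The p-values then measure only the spread between these samples, which may be technical. The labels do not say whether an NR line is 1 clone.

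Cells carry separate sets of these enzymes for the cytosol and for the mitochondria, all encoded in the nucleus. GARS and KARS are exceptions, since each gene makes both the cytosolic and the mitochondrial enzyme for glycine and lysine. Several cytosolic enzymes sit together in the multisynthetase complex, held by the scaffold proteins AIMP1, AIMP2 and AIMP3. When amino acids or their charged tRNAs run short, the kinase GCN2 (EIF2AK4) phosphorylates eIF2 and the transcription factor ATF4 is made, and many cytosolic synthetase genes are known ATF4 targets.

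Library totals were 34.9 to 43.3 M counts in 5637 and 23.8 to 48.5 M in OVCAR8. Parental control replicate 2 of OVCAR8 stood apart from the rest: 14.1% of its counts fell in genes longer than 8 kb (20.4% to 21.2% in the rest of OVCAR8), and 5.82% in genes shorter than 1 kb (4.06% to 4.74%). Counts of OVCAR8 calls are therefore given with and without it, as are values of some named genes, though not of all that it moved. The keratin genes KRT5 and KRT19 and the urothelial factor GATA3 were present in every 5637 library, with GATA3 at 10.3 to 19.0 CPM (counts scaled to the library total) in OVCAR8 and 32.6 to 72.8 CPM in 5637. OVCAR8 carried the Mullerian factor PAX8 at 69.2 to 157 CPM, against at most 47.8 CPM in 5637. Of the other ovarian markers, WT1 (0.882 to 4.32 CPM) and MUC16 (at most 0.220 CPM) were low in OVCAR8. Against the OVCAR8 label, 5637 had 1.67 to 32.6 CPM of WT1 and 78.1 to 391 CPM of MUC16. KRT7 and EPCAM, listed for both lines, had medians of 923 and 19.4 CPM in OVCAR8, and 2362 and 207 CPM in 5637. KRT8 and KRT18 had medians of 1512 and 604 CPM in OVCAR8, and 1278 and 495 CPM in 5637. The leukocyte markers PTPRC and CD3E and the hepatocyte marker ALB stayed below 0.187 CPM in both lines. In bulk RNA, fewer cells of a kind and less RNA per cell cannot be told apart.

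Upstream sequences that hold the letters TGATGNAA, found in elements that ATF4 is known to bind, are shown first. RefSeq starts (build GRCh38.p14) were found for 32 of the 38 genes. Within 250 bases before the start, on either strand, these letters stood in 3 of 16 cytosolic genes (AARS, GARS and IARS), in 1 of 14 mitochondrial genes (YARS2) and in 3.89% of 27305 genes. CARS, EPRS, MARS, NARS, SARS, TARS and WARS, which rose with neratinib in both parental lines as given below, lacked these letters. LARS and YARS, which rose too, had no RefSeq start here. The stricter letters TGATGCAA, a case of TGATGNAA, stood in AARS and IARS and in 0.967% of genes. The E-box letters CACGTG stood in IARS, EARS2, MARS2 and AIMP2 and in 7.73% of genes. In EARS2 and AIMP2 they lay past another RefSeq start of the same gene. In the stretches below, each on its gene's strand and ending at the base before the start, capitals mark TTGCATCA (TGATGCAA on the other strand) and CACGTG. A match describes the letters only, and no binding was measured.
AARS, chr16:70289507-70289756, minus strand: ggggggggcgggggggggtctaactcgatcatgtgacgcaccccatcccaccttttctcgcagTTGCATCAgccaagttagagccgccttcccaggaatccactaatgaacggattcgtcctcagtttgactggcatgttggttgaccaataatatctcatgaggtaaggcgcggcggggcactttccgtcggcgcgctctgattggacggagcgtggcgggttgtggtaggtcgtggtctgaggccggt
IARS, chr9:92293698-92293947, minus strand: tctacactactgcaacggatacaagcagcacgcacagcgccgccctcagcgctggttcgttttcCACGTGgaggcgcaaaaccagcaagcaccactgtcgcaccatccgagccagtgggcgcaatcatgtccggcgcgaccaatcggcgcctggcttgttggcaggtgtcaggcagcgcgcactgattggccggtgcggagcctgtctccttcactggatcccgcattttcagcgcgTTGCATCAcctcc

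In GARS the match had another base in the N position, on the other strand, and in YARS2 it lay on the gene's strand. GARS has 2 RefSeq starts, and its match lies before 1 of them and past the other. YARS2 fell with neratinib in both parental lines. Capitals mark the match.
GARS, chr7:30594834-30594863, plus strand: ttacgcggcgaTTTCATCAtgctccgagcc
YARS2, chr12:32756067-32756114, minus strand: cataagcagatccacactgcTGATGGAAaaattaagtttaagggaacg

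HARS and HARS2, the cytosolic and mitochondrial histidine enzymes, lie head to head, and 84 bases separate their RefSeq starts. The stretch is shown because the genes share it and moved in opposite directions under neratinib in 5637 NR cells. It holds none of the 3 sets of letters.
HARS to HARS2, chr5:140691371-140691454, plus strand: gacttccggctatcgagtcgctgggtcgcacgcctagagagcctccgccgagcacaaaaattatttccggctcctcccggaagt

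Levels between genes were compared per length, as RPKM, the CPM divided by the gene length in kb that the table gives. In 5637 parental controls, KARS, the lysine enzyme, stood highest at 55.3 ± 0.648 RPKM, followed by FARSA, a subunit of the phenylalanine enzyme, at 54.4 ± 0.368 RPKM and GARS at 51.9 ± 2.26 RPKM (SD, n = 3 each). The libraries of KARS and FARSA overlapped, as did those of FARSA and GARS. The lowest tested cytosolic gene was CARS, the cysteine enzyme, at 5.68 ± 0.0959 RPKM. In OVCAR8 parental controls the serine enzyme SARS (113 ± 18.2 RPKM) and the alanine enzyme AARS (83.9 ± 8.45 RPKM) led, and CARS was again lowest at 9.09 ± 0.922 RPKM. Mitochondrial members reached 32.4 ± 1.72 RPKM for IARS2 in 5637 and 31.7 ± 1.176 RPKM for RARS2 in OVCAR8, and SARS2 was lowest among those tested, at 1.32 ± 0.208 and 1.51 ± 0.258 RPKM in the same 2 groups (5637 first). AIMP2 exceeded AIMP1 in 5637 (24.2 ± 0.317 against 11.2 ± 0.311 RPKM) and in OVCAR8 (29.6 ± 3.85 against 12.7 ± 1.06 RPKM). In the deposited table (build hg19) AARS spans bases 70286198 to 70323446 of chromosome 16, WARS 100800125 to 100843142 of chromosome 14, MARS 57869228 to 57911352 of chromosome 12 and MARS2 198570087 to 198573113 of chromosome 2. Spans of many members overlap other genes, as SARS2 does with MRPS12 and FBXO17, YARS2 with DNM1L and AIMP2 with EIF2AK1. The strand setting of the counting is not stated, and the part of shared reads was not tested. VARS had 4 entries in the table and 27 counts over all libraries, and VARS2 had 2 entries and 87 counts. Each is listed more than once, and these counts cannot be read as absence of the mRNA.

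Neratinib raised most cytosolic synthetase genes in parental cells of both lines. In parental 5637 cells, 12 of 19 tested cytosolic genes rose, 5 fell and 2 did not pass (edgeR, adjusted p under 0.05). Over all 18307 genes 47.3% were called, 23.9% higher and 23.5% lower. The median log2 fold change of the 19 was 0.45, against 0.02 over all genes tested, and 7 of them rose at least 2-fold, as did 6.02% of all genes. In parental OVCAR8 cells, 13 of 19 rose, 5 fell and 1 did not pass, where 32.5% of 18072 genes were called, 16.2% higher and 16.3% lower. There the median was 0.46, against 0.01 over all genes, and 3 rose at least 2-fold, as did 4.19% of genes. When parental control replicate 2 was left out the counts were again 13 and 5, where 49.2% of genes were called, and 5 rose at least 2-fold. The same 12 genes rose in both parental lines and in 5637 NR cells: AARS, CARS, EPRS, GARS, IARS, LARS, MARS, NARS, SARS, TARS, WARS and YARS. How many of all genes rose in these comparisons together was not counted. QARS, the glutamine enzyme, was the thirteenth in OVCAR8, at log2 0.26 ± 0.09 (SE), and stood at 0.10 ± 0.05 in 5637, where it did not pass.

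**Figure D1:**
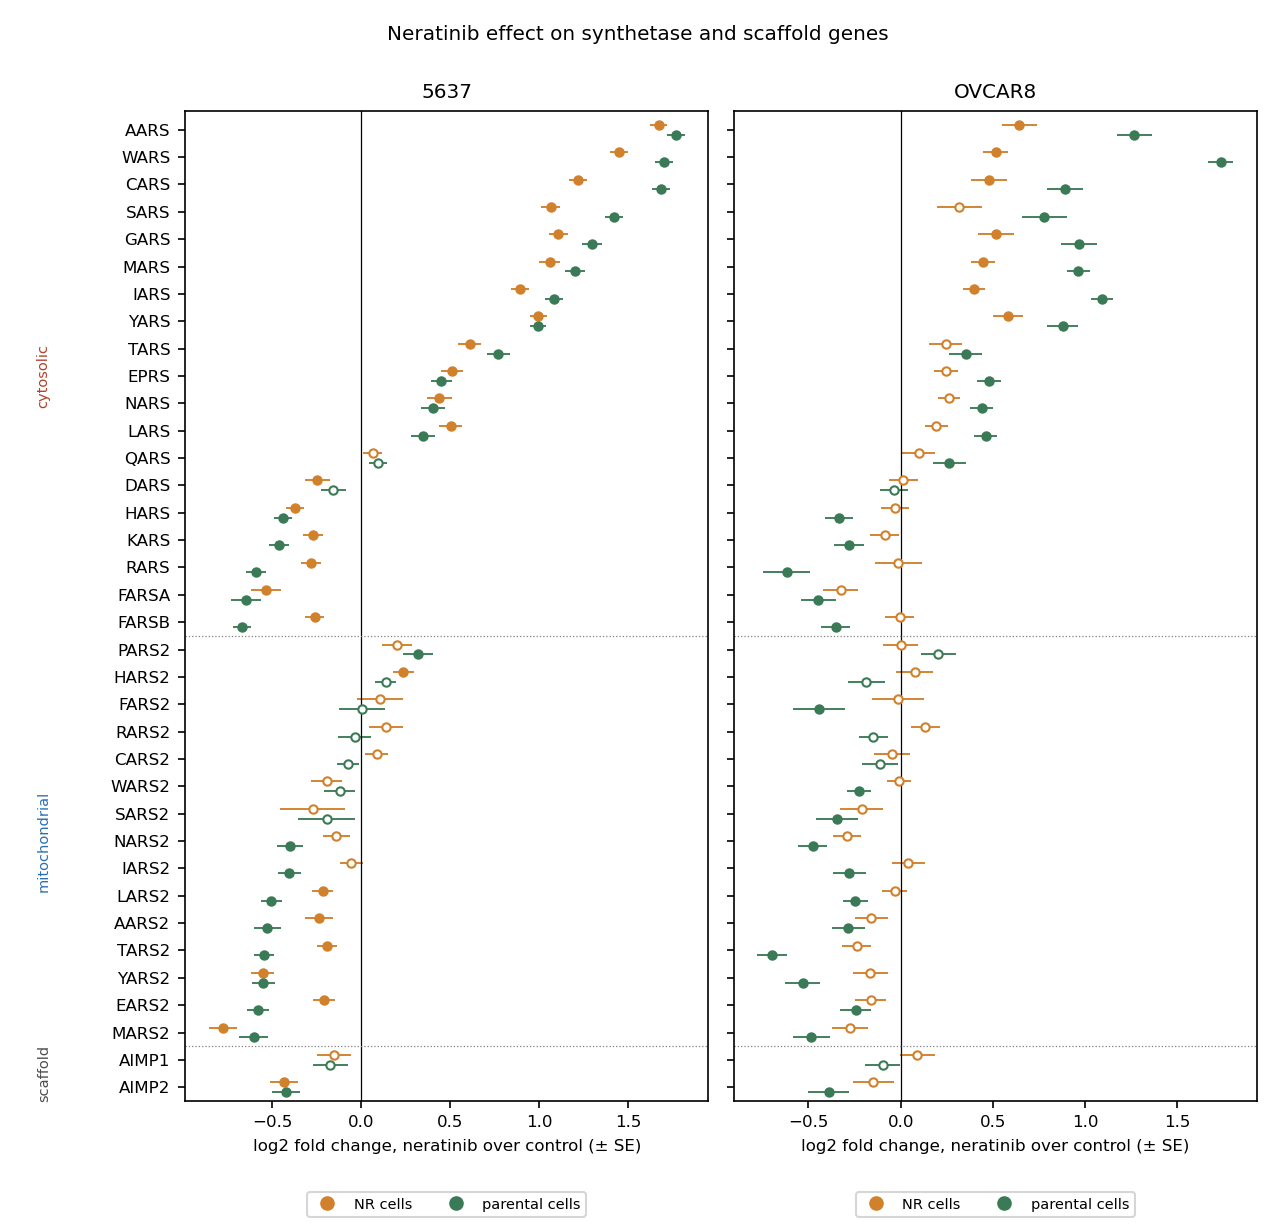
Log2 fold change of neratinib over control (x axis, ± SE) for the 36 tested genes (rows, by class) in 5637 (left) and OVCAR8 (right). Orange points are NR cells and green points parental cells, filled where edgeR's adjusted p was under 0.05. AARS, WARS and CARS lead in parental 5637 cells at 1.77, 1.70 and 1.69, and most mitochondrial genes lie left of 0.

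AARS was the most changed member in parental 5637 cells. Its level was 353, 354 and 356 CPM in 5637 NR cells with neratinib, 99.5, 102 and 105 CPM in NR controls, 363, 371 and 359.9 CPM in parental cells with neratinib and 97.4, 101 and 99.5 CPM in parental controls. In OVCAR8 it was 584, 586 and 589 CPM in NR cells with neratinib, 377, 374 and 363 CPM in NR controls, 974, 971 and 987 CPM in parental cells with neratinib and 338, 414 and 380.1 CPM in parental controls. Every library with drug lay above every control of its line and state. The log2 fold change in parental cells was 1.77 ± 0.05 (SE) in 5637 and 1.27 ± 0.10 in OVCAR8 (edgeR adjusted p = 4.4e-13 and 3.6e-06).

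WARS, the tryptophan enzyme, which interferon is also known to induce, rose in all 4 drug comparisons. It stood at 279, 279 and 271 CPM in 5637 NR cells with neratinib, 93.1, 90.7 and 94.5 CPM in NR controls, 342, 342 and 352 CPM in parental cells with neratinib and 95.8, 102 and 97.6 CPM in parental controls. The OVCAR8 values were 145, 140.3 and 136 CPM in NR cells with neratinib, 98.9, 95.3 and 97.3 CPM in NR controls, 362, 365 and 366 CPM in parental cells with neratinib and 104, 90.2 and 113 CPM in parental controls. Libraries with drug and controls did not overlap in any of the 4 pairs, and in OVCAR8 the NR libraries with drug lay far below the parental ones. The parental log2 fold changes were 1.70 ± 0.05 in 5637 and 1.73 ± 0.07 in OVCAR8, and their difference was 0.02 ± 0.08 (OVCAR8 minus 5637, edgeR adjusted p = 0.94).

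CARS stood at 218, 223 and 222 CPM in 5637 NR cells with neratinib, 87.9, 84.7 and 88.1 CPM in NR controls, 196, 204 and 193 CPM in parental cells with neratinib and 58.1, 56.2 and 56.8 CPM in parental controls. In OVCAR8 the values were 117, 118 and 116 CPM in NR cells with neratinib, 85.9, 81.5 and 80.9 CPM in NR controls, 184, 187 and 175 CPM in parental cells with neratinib and 82.9, 101 and 89.6 CPM in parental controls. Drug and control libraries were separate in all 4 pairs, and 5637 NR controls lay above 5637 parental controls. Neratinib changed CARS in parental cells by 1.69 ± 0.05 in 5637 and 0.89 ± 0.10 in OVCAR8 (log2 ± SE, edgeR adjusted p = 1.3e-12 and 4.9e-05). The OVCAR8 value was 1.03 without parental control replicate 2, its highest control.

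SARS reached 328, 348 and 346 CPM in 5637 NR cells with neratinib, 144, 156 and 147 CPM in NR controls, 467, 468 and 454 CPM in parental cells with neratinib and 168, 161 and 153 CPM in parental controls. In OVCAR8 it reached 461, 456 and 458 CPM in NR cells with neratinib, 366, 356 and 367 CPM in NR controls, 779, 804 and 812 CPM in parental cells with neratinib and 376, 510.2 and 409 CPM in parental controls. The library that stood apart was the highest OVCAR8 control. The parental log2 fold change was 1.42 ± 0.05 in 5637 and 0.78 ± 0.12 in OVCAR8, and 0.97 in OVCAR8 without that library.

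MARS, the methionine enzyme of the complex, stood at 265, 248 and 251 CPM in 5637 NR cells with neratinib, 112, 106 and 118 CPM in NR controls, 448, 461 and 448 CPM in parental cells with neratinib and 184, 184 and 179 CPM in parental controls. In OVCAR8 the values were 429.6, 421 and 431 CPM in NR cells with neratinib, 311, 315 and 302 CPM in NR controls, 635, 673 and 623 CPM in parental cells with neratinib and 309.9, 302 and 312 CPM in parental controls. NR libraries lay below parental ones in 5637 with and without drug. The parental log2 fold changes were 1.20 ± 0.06 in 5637 and 0.96 ± 0.06 in OVCAR8 (edgeR adjusted p = 2.3e-10 and 1.5e-06). MARS overlaps DDIT3, a transcription factor gene of the same stress response, by 982 bases, and the sources do not state whether counting used strand. DDIT3 averaged 34.6 ± 2.06 CPM in parental 5637 cells with neratinib and 5.46 ± 0.225 CPM in their controls, and 47.5 ± 0.325 and 10.3 ± 4.20 CPM in the same OVCAR8 groups (neratinib first). The part of shared reads in the MARS values was not tested.

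GARS, which serves both compartments, stood at 405, 446 and 438 CPM in 5637 NR cells with neratinib, 174, 187 and 186 CPM in NR controls, 589.9, 561 and 559.7 CPM in parental cells with neratinib and 217, 224 and 206 CPM in parental controls. In OVCAR8 it stood at 310.0, 299 and 306 CPM in NR cells with neratinib, 209, 213 and 209 CPM in NR controls, 493, 481 and 483 CPM in parental cells with neratinib and 215, 258 and 219 CPM in parental controls. Drug and control libraries were again separate in every pair. The parental log2 fold changes were 1.30 ± 0.05 in 5637 and 0.97 ± 0.10 in OVCAR8, or 1.11 there without parental control replicate 2. KARS, the other gene that serves both compartments, moved the other way, as its values further on show.

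IARS, the isoleucine enzyme of the complex, had 528, 605 and 581 CPM in 5637 NR cells with neratinib, 284, 285 and 277 CPM in NR controls, 665, 670.4 and 676 CPM in parental cells with neratinib and 303, 295 and 283 CPM in parental controls. The OVCAR8 levels were 316, 333 and 325 CPM in NR cells with neratinib, 247, 242 and 241 CPM in NR controls, 507, 519.9 and 513 CPM in parental cells with neratinib and 238, 199.9 and 239 CPM in parental controls. Its parental log2 fold changes were 1.09 ± 0.05 in 5637 and 1.09 ± 0.06 in OVCAR8, with no overlap between drug and control libraries.

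YARS, the tyrosine enzyme, had 325, 338 and 333 CPM in 5637 NR cells with neratinib, 147, 154 and 156 CPM in NR controls, 336, 333 and 329.7 CPM in parental cells with neratinib and 155, 156 and 155 CPM in parental controls. In OVCAR8 it had 278, 284 and 288 CPM in NR cells with neratinib, 188, 186 and 186 CPM in NR controls, 382, 392 and 395 CPM in parental cells with neratinib and 186, 210.2 and 196 CPM in parental controls. Its log2 fold change was 0.99 ± 0.05 in parental and 1.00 ± 0.05 in NR 5637 cells. The remaining genes of the 12, namely TARS, EPRS, NARS and LARS, rose by 0.35 to 0.77 in parental 5637 cells and by 0.35 to 0.48 in parental OVCAR8 cells.

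**Figure D2:**
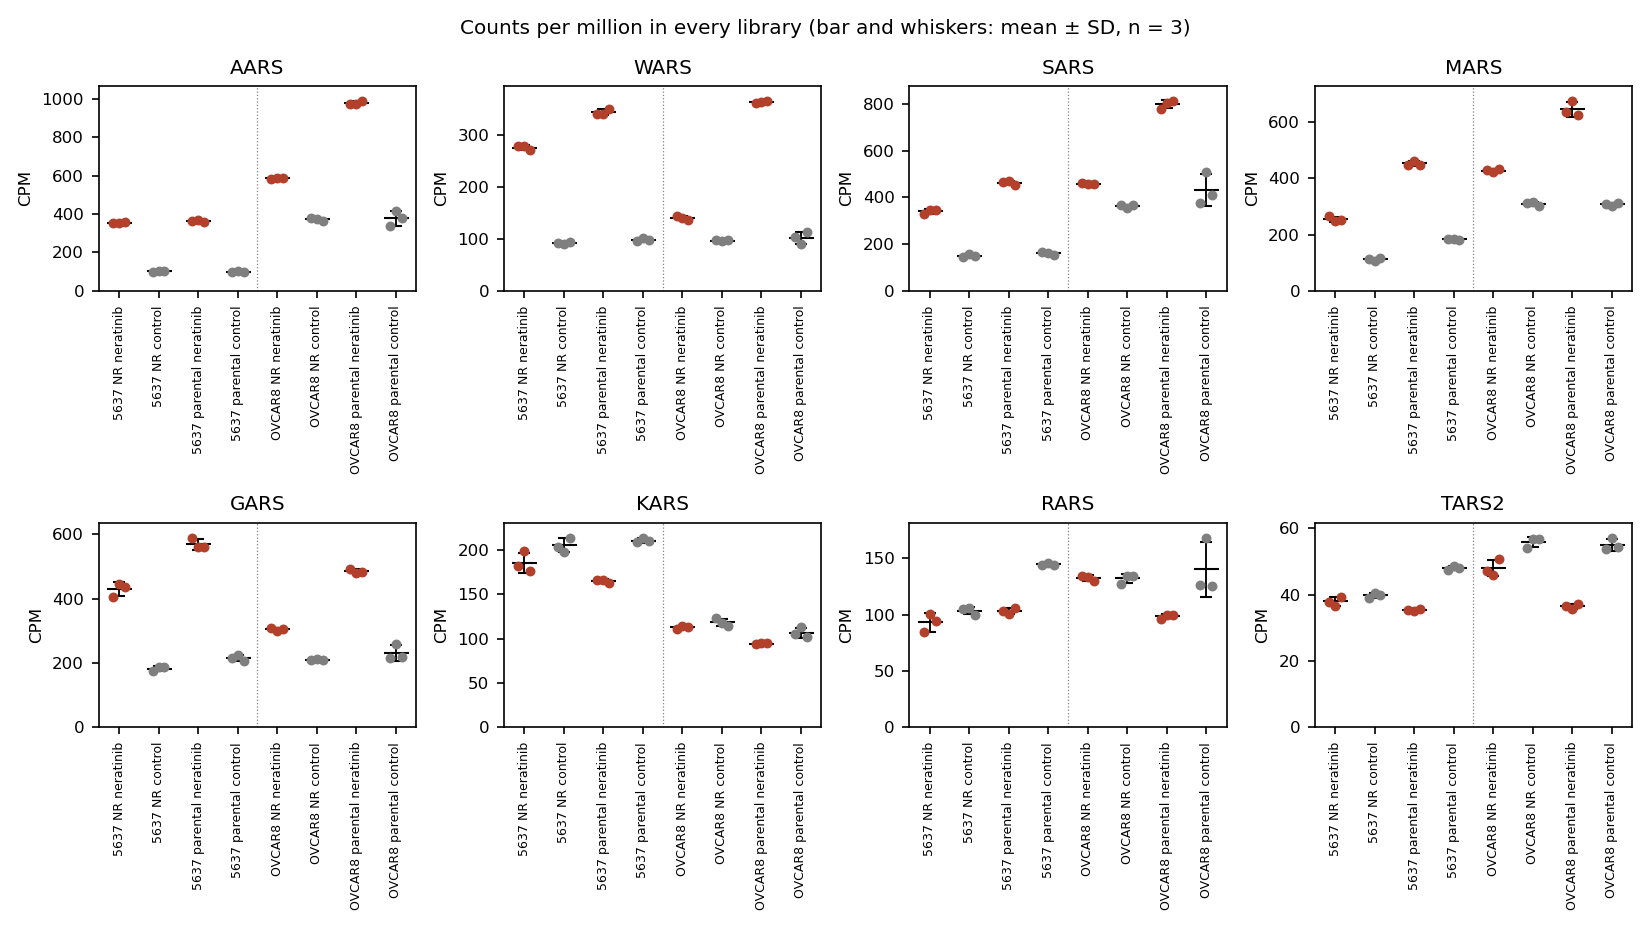
CPM (y axis, from 0) in every library of the 8 groups (x axis) for 7 cytosolic genes and for the mitochondrial gene TARS2. Red points are libraries with neratinib, grey points controls, and black bars the mean ± SD (n = 3). AARS and WARS rise with neratinib in every pair, least in OVCAR8 NR cells, while RARS and TARS2 lie lower with neratinib in parental cells.

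In both parental lines and in 5637 NR cells, 5 of 19 cytosolic genes fell: FARSA and FARSB, which encode the subunits of the phenylalanine enzyme, and HARS, KARS and RARS, for histidine, lysine and arginine. Of all genes 23.5% were lower in parental 5637, 16.3% in parental OVCAR8 and 21.1% in 5637 NR cells. The share lower in these comparisons together was not counted. RARS stood at 84.2, 100.2 and 94.8 CPM in 5637 NR cells with neratinib, 105, 106 and 100.02 CPM in NR controls, 103, 101 and 106 CPM in parental cells with neratinib and 144, 146 and 144 CPM in parental controls. In OVCAR8 it stood at 134, 134 and 129.9 CPM in NR cells with neratinib, 128, 134 and 134 CPM in NR controls, 96.6, 99.3 and 100.1 CPM in parental cells with neratinib and 127, 168 and 125 CPM in parental controls. In 5637 NR cells drug and control libraries overlapped, and in both parental lines every library with drug was lower. The parental log2 fold change was -0.59 ± 0.06 in 5637 and -0.62 ± 0.13 in OVCAR8 (edgeR adjusted p = 4.5e-07 and 0.0032), and -0.40 in OVCAR8 without the library that stood apart, which was the highest control. A fall of RARS, a complex member, stood beside rises of MARS and IARS, which bind the same complex.

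FARSB had 102, 112 and 103 CPM in 5637 NR cells with neratinib, 118, 115 and 117 CPM in NR controls, 76.4, 78.7 and 79.7 CPM in parental cells with neratinib and 116, 117 and 114 CPM in parental controls. FARSA, its partner, had 91.4, 72.3 and 86.4 CPM in NR cells with neratinib, 103, 114 and 116 CPM in NR controls, 96.1, 92.3 and 84.8 CPM in parental cells with neratinib and 133, 133 and 131 CPM in parental controls. In parental 5637 cells the subunits fell by nearly the same amount, at log2 -0.67 ± 0.05 for FARSB and -0.65 ± 0.08 for FARSA, whereas in NR cells they stood at -0.26 ± 0.05 and -0.54 ± 0.08.

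In OVCAR8, FARSB had 113, 119 and 114 CPM in NR cells with neratinib, 115, 112 and 116 CPM in NR controls, 96.5, 92.5 and 97.5 CPM in parental cells with neratinib and 111, 119.6 and 111 CPM in parental controls. FARSA had 119, 104 and 113 CPM in NR cells with neratinib, 144, 131 and 140.3 CPM in NR controls, 97.1, 98.9 and 97.6 CPM in parental cells with neratinib and 121, 134 and 117 CPM in parental controls. Both subunits were lower with drug in every parental library, at log2 -0.35 ± 0.08 for FARSB and -0.45 ± 0.10 for FARSA (edgeR adjusted p = 0.0053 and 0.0040). Leaving out parental control replicate 2, the highest control of both, gave -0.26 for FARSB and -0.33 for FARSA.

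KARS stood at 182, 199 and 177 CPM in 5637 NR cells with neratinib, 204, 198 and 214 CPM in NR controls, 166, 166 and 162 CPM in parental cells with neratinib and 209, 213 and 210.3 CPM in parental controls. In OVCAR8 it stood at 111, 114 and 114 CPM in NR cells with neratinib, 123, 118 and 114 CPM in NR controls, 93.8, 94.8 and 94.8 CPM in parental cells with neratinib and 105, 113 and 102 CPM in parental controls. The NR groups overlapped in both lines, and the parental log2 fold changes were -0.46 ± 0.06 in 5637 and -0.28 ± 0.08 in OVCAR8, or -0.18 there without parental control replicate 2, its highest control. With libraries scaled by size alone the OVCAR8 call was lost (edgeR adjusted p = 0.055), as it was in the fits without parental neratinib replicate 1, 2 or 3 (edgeR adjusted p of 0.055 to 0.066).

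HARS had 83.0, 86.1 and 85.8 CPM in 5637 NR cells with neratinib, 101, 100.3 and 102 CPM in NR controls, 76.0, 76.9 and 76.4 CPM in parental cells with neratinib and 97.6, 99.7 and 91.8 CPM in parental controls. In OVCAR8 it had 86.2, 84.1 and 85.4 CPM in NR cells with neratinib, 85.0, 84.4 and 88.3 CPM in NR controls, 75.7, 77.1 and 73.1 CPM in parental cells with neratinib and 89.0, 92.0 and 84.3 CPM in parental controls. Its log2 fold change was -0.44 ± 0.05 in parental and -0.37 ± 0.05 in NR 5637 cells, and -0.33 ± 0.08 in parental OVCAR8 cells. HARS2, on the other side of the shared upstream stretch shown above, rose by 0.24 ± 0.06 in 5637 NR cells (edgeR adjusted p = 0.0055) and did not pass in parental 5637 cells (0.14 ± 0.06) or parental OVCAR8 cells (-0.19 ± 0.10, and -0.04 without the library that stood apart). The table's gene spans of HARS and HARS2 overlap by 599 bases, so without a stated strand setting their reads cannot be told apart there.

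Mitochondrial synthetase genes fell more often than they rose. In parental 5637 cells 8 of 15 fell, 1 rose and 6 did not pass, with a median log2 fold change of -0.40, where 23.9% of all genes were higher and 23.5% lower. In parental OVCAR8 cells 11 of 15 fell and 0 rose (median -0.28), where 16.2% of all genes were higher and 16.3% lower, and at an unadjusted edgeR p under 0.05, in DESeq2 and in limma voom the counts were the same. Without the library that stood apart 11 fell and 1 rose, where 24.3% of all genes were higher and 24.9% lower. Scaling by library size alone, which put the median over all genes at log2 0.13 in 5637 and 0.11 in OVCAR8, left 8 falling and 2 rising in 5637, and 5 falling and 1 rising in OVCAR8. Over all genes the same scaling made 64.2% of calls higher in place of 50.4% in parental 5637 cells, and 62.6% in place of 49.8% in parental OVCAR8 cells. Cytosolic counts were then 13 rising and 5 falling in 5637, and 13 and 4 in OVCAR8. PARS2, the mitochondrial proline enzyme, was the gene that rose in parental 5637 cells, by 0.32 ± 0.08 (edgeR adjusted p = 0.0055).

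MARS2, the mitochondrial methionine enzyme, fell in both states of 5637. It had 11.6, 12.1 and 10.98 CPM in 5637 NR cells with neratinib, 17.9, 19.1 and 17.7 CPM in NR controls, 10.1, 9.25 and 9.79 CPM in parental cells with neratinib and 14.1, 14.2 and 12.8 CPM in parental controls. The OVCAR8 values were 11.9, 11.7 and 10.9 CPM in NR cells with neratinib, 13.2, 13.7 and 14.3 CPM in NR controls, 7.94, 8.31 and 7.18 CPM in parental cells with neratinib and 11.7, 8.44 and 10.6 CPM in parental controls. Its log2 fold change was -0.60 ± 0.08 in parental and -0.78 ± 0.08 in NR 5637 cells, opposite to the cytosolic MARS in the same libraries. In parental OVCAR8 cells it was -0.48 ± 0.10 (edgeR adjusted p = 0.0030).

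TARS2, the mitochondrial threonine enzyme, had 37.8, 36.6 and 39.4 CPM in 5637 NR cells with neratinib, 38.9, 40.4 and 40.0 CPM in NR controls, 35.4, 35.1 and 35.6 CPM in parental cells with neratinib and 47.3, 48.7 and 48.0 CPM in parental controls. In OVCAR8 it had 47.2, 46.0 and 50.6 CPM in NR cells with neratinib, 54.1, 56.6 and 56.8 CPM in NR controls, 36.7, 35.5 and 37.1 CPM in parental cells with neratinib and 53.7, 57.1 and 54.2 CPM in parental controls. It was the mitochondrial gene that changed most in parental OVCAR8 cells, by -0.70 ± 0.08, and it changed by -0.55 ± 0.06 in parental 5637 cells. All parental OVCAR8 libraries with drug lay below all parental controls.

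EARS2 and YARS2, the mitochondrial enzymes for glutamate and tyrosine, fell in both parental lines. EARS2 had 33.2, 33.8 and 32.1 CPM in 5637 NR cells with neratinib, 33.7, 36.3 and 35.3 CPM in NR controls, 29.4, 28.9 and 28.4 CPM in parental cells with neratinib and 39.7, 41.6 and 39.1 CPM in parental controls. YARS2 had 14.2, 14.1 and 14.4 CPM in 5637 NR cells with neratinib, 19.8, 19.4 and 18.4 CPM in NR controls, 22.8, 21.9 and 22.3 CPM in parental cells with neratinib and 30.9, 29.0 and 31.5 CPM in parental controls. The drug lowered EARS2 by a larger amount in parental (-0.58 ± 0.06) than in NR 5637 cells (-0.21 ± 0.06), a difference that passed its test (edgeR adjusted p = 0.0095), and YARS2 stood at -0.55 ± 0.06 and -0.56 ± 0.07.

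In OVCAR8, EARS2 had 42.6, 43.5 and 43.3 CPM in NR cells with neratinib, 47.8, 46.5 and 48.9 CPM in NR controls, 37.5, 41.3 and 40.0 CPM in parental cells with neratinib and 49.0, 35.4 and 47.6 CPM in parental controls. YARS2 had 30.6, 27.0 and 27.3 CPM in NR cells with neratinib, 32.4, 31.5 and 30.1 CPM in NR controls, 23.1, 24.6 and 23.4 CPM in parental cells with neratinib and 30.1, 34.0 and 31.6 CPM in parental controls. The EARS2 groups overlapped in parental cells, where the library that stood apart was the lowest control, and its log2 fold change there was -0.24 ± 0.08, against -0.34 without that library. YARS2 changed by -0.53 ± 0.09 in parental OVCAR8 cells (edgeR adjusted p = 0.0012).

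Neither scaffold was called higher with neratinib by edgeR, DESeq2 or limma voom. AIMP2, the core scaffold of the complex, had 41.0, 33.7 and 37.6 CPM in 5637 NR cells with neratinib, 45.8, 43.5 and 50.0 CPM in NR controls, 35.4, 36.4 and 35.1 CPM in parental cells with neratinib and 43.9, 44.4 and 45.0 CPM in parental controls. Its OVCAR8 values were 49.2, 43.8 and 44.6 CPM in NR cells with neratinib, 50.8, 50.2 and 49.5 CPM in NR controls, 44.0, 44.4 and 45.7 CPM in parental cells with neratinib and 53.9, 61.7 and 47.6 CPM in parental controls. AIMP2 fell, at -0.43 ± 0.08 in parental 5637, -0.44 ± 0.08 in 5637 NR and -0.39 ± 0.11 in parental OVCAR8 cells (log2 ± SE), the last at an edgeR adjusted p of 0.019. Without parental control replicate 2, the highest control of AIMP2, the value in parental OVCAR8 cells was -0.23. That call was lost in the fits without parental neratinib replicate 1 or 2 (edgeR adjusted p = 0.065 and 0.062) and in the fit of the 6 libraries compared alone (edgeR adjusted p = 0.11).

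AIMP1, which also yields a secreted cytokine, had 41.8, 56.4 and 55.2 CPM in 5637 NR cells with neratinib, 52.8, 56.8 and 46.7 CPM in NR controls, 35.9, 32.6 and 38.1 CPM in parental cells with neratinib and 37.98, 37.7 and 36.1 CPM in parental controls. In OVCAR8 it had 46.1, 49.8 and 45.4 CPM in NR cells with neratinib, 43.4, 42.4 and 45.4 CPM in NR controls, 43.1, 41.9 and 42.8 CPM in parental cells with neratinib and 39.6, 46.4 and 41.1 CPM in parental controls. It did not pass in any of the 4 drug comparisons (log2 -0.17 to 0.09). Drug and control libraries overlapped except in OVCAR8 NR cells. There the lowest library with drug (45.45 CPM) lay just above the highest control (45.36 CPM).

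Grouped by their place in the cell, the 8 enzymes of the complex (DARS, EPRS, IARS, KARS, LARS, MARS, QARS and RARS) had 4 rising and 2 falling members in parental 5637 cells, with a median log2 fold change of 0.22. The 11 tested cytosolic enzymes outside it had 8 rising and 3 falling members, with a median of 0.99. Of all genes 23.9% were called higher and 23.5% lower in that comparison. In parental OVCAR8 cells these counts were 5 and 2 of 8 (median 0.36) inside the complex and 8 and 3 of 11 (median 0.78) outside it, where 16.2% of all genes were higher and 16.3% lower. By catalytic class, EPRS was counted as class I only. The 9 tested class I enzymes had 7 rising and 1 falling member in parental 5637 cells, whereas the 10 class II enzymes had 5 rising and 4 falling. QARS was the class I enzyme that did not pass, and RARS the class I enzyme that fell. The difference between these groupings was not tested.

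Summed over the class, cytosolic synthetase mRNA made up 4762 ± 203 CPM in 5637 NR cells with neratinib, 2774 ± 52.1 CPM in NR controls, 5290.1 ± 14.9 CPM in parental cells with neratinib and 2921 ± 55.1 CPM in parental controls (mean ± SD, n = 3). In OVCAR8 the sums were 4484 ± 6.85, 3569.7 ± 30.2, 6199 ± 54.9 and 3553 ± 172 CPM in the same order of groups. The mitochondrial sums stayed within 486 to 556 CPM in 5637 and 587 to 665 CPM in OVCAR8. The per-length ratio of the cytosolic to the mitochondrial gene for the same amino acid is given without a test. AARS over AARS2 was 10.97 ± 0.530 in parental 5637 cells with neratinib and 2.22 ± 0.0492 in their controls. WARS over WARS2 was 11.97 ± 0.571 with neratinib and 3.38 ± 0.153 in controls, and MARS over MARS2 was 20.1 ± 1.24 and 5.74 ± 0.246 (parental 5637, neratinib first). The ratio was lower with neratinib for pairs whose cytosolic gene fell: HARS over HARS2 was 0.476 ± 0.0168 with neratinib and 0.711 ± 0.0382 in controls, and RARS over RARS2 was 3.09 ± 0.0289 and 4.55 ± 0.241. In 5637 NR cells the AARS to AARS2 ratio was 10.8 ± 0.995 with neratinib and 2.86 ± 0.0451 in controls.

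Neratinib was also given to the NR cells of both lines. In 5637 NR cells, 12 of 19 cytosolic genes rose, 6 fell and 1 did not pass, where 39.5% of all genes were called, 18.4% higher and 21.1% lower. The median of the 19 was 0.51, against -0.0020 over all genes, and 6 rose at least 2-fold, as did 4.29% of genes. Of 15 mitochondrial genes, 6 fell and 1 (HARS2) rose. Scaled by library size alone, 13 cytosolic genes rose and 4 fell, and 2 mitochondrial genes fell and 3 rose, while 67.4% of all calls were higher in place of 46.6%. DARS, the aspartate enzyme, was the sixth gene that fell, at -0.25 ± 0.07, a call that was lost under that scaling, as was that of RARS, and in the fits without NR control replicate 2 or NR neratinib replicate 3 (edgeR adjusted p = 0.058 and 0.062). AARS changed by 1.67 ± 0.05, WARS by 1.45 ± 0.05 and CARS by 1.22 ± 0.05 in 5637 NR cells.

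In OVCAR8 NR cells, 7 of 19 cytosolic genes rose, where 1.39% of all genes were called, 0.642% higher and 0.747% lower. The 7 were AARS, CARS, GARS, IARS, MARS, WARS and YARS, which rose in all 4 drug comparisons. How many of all genes rose in all 4 was not counted. The median of the 19 was 0.25, against 0.0044 over all genes. YARS changed by 0.58 ± 0.08, AARS by 0.64 ± 0.10, GARS by 0.52 ± 0.10 and WARS by 0.51 ± 0.07 (edgeR adjusted p = 0.0064, 0.0077, 0.026 and 0.0040). SARS stood at 0.32 ± 0.12 and did not pass, although its 3 libraries with drug lay above its 3 controls. None of the 19 fell by edgeR, 1 fell at an unadjusted p under 0.05 and in DESeq2, and 0 fell in limma voom. Of 15 mitochondrial genes 0 rose and 0 fell by edgeR (0 and 3 at an unadjusted p under 0.05, 0 and 1 in DESeq2, 0 and 0 in limma voom).

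Without parental control replicate 2, which belongs to neither group compared here but shares the fit, 12 cytosolic genes rose and 1 fell, and 6 mitochondrial genes and AIMP2 fell, where 21.3% of all genes were called. Leaving out other libraries gave fewer calls: 3 members were called without any 1 of the NR controls, 2 without NR neratinib replicate 1, and 4 without NR neratinib replicate 2 or 3. For these fits the share of all genes called is not given, so a change particular to the members cannot be read from them.

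The drug effect was compared directly between NR and parental cells. In 5637, CARS (-0.47 ± 0.07), SARS (-0.36 ± 0.07) and WARS (-0.25 ± 0.07) rose less in NR cells, and FARSB (0.41 ± 0.07) and RARS (0.31 ± 0.08) fell less (log2 difference ± SE, edgeR adjusted p of 0.00030 to 0.024). These were 3 lower and 2 higher of 19, where 13.9% of all genes were called, 7.39% higher and 6.48% lower. Of the mitochondrial genes, EARS2, TARS2, IARS2 and LARS2 had a higher value in NR cells, by 0.29 to 0.37, and 0 of 15 had a lower one by edgeR, with 0 lower at an unadjusted p under 0.05, 0 in DESeq2 and 0 in limma voom. AARS, the most changed gene, had a difference of -0.10 ± 0.07, which did not pass (edgeR adjusted p = 0.39).

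In OVCAR8, WARS (-1.22 ± 0.09), IARS (-0.69 ± 0.09), AARS (-0.62 ± 0.14) and MARS (-0.52 ± 0.09) rose less in NR cells than in parental cells (edgeR adjusted p of 5.7e-05 to 0.015). They were 4 of 19, where 8.83% of all genes were called, 4.62% higher and 4.21% lower. TARS2 fell less in NR cells (0.46 ± 0.11, edgeR adjusted p = 0.027), a call that was lost in 8 of the fits that left out 1 library. When replicate 2 of the parental controls was left out, 13 cytosolic genes had a lower and 3 a higher value in NR cells, 6 mitochondrial genes had a higher one, and 32.8% of all genes were called. Scaling by library size alone gave 9 lower and 1 higher cytosolic gene, and made 40.5% of all calls higher in place of 52.4%. In all, 8 members were called in place of 5 when parental control replicate 1 was left out, a fit whose share of all genes is not given.

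**Figure D3:**
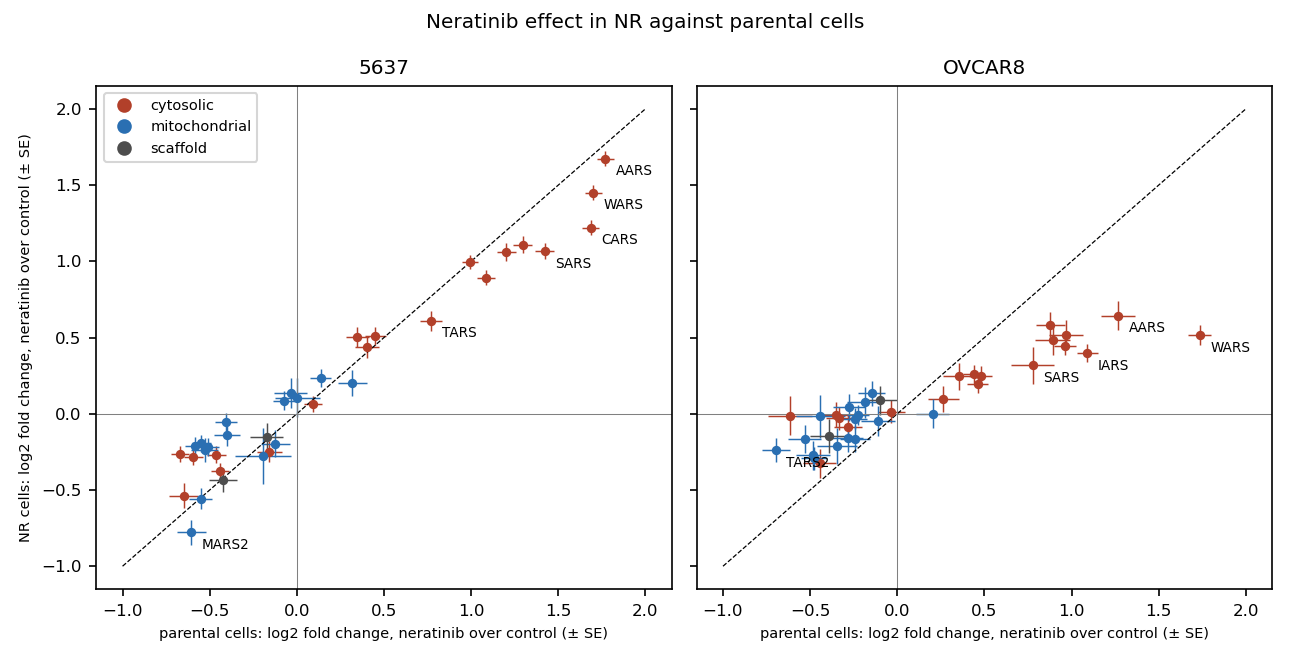
Log2 fold change of neratinib over control in NR cells (y axis) against parental cells (x axis), ± SE, for the 36 tested genes in 5637 (left) and OVCAR8 (right), coloured by class. Points on the dashed line changed equally in both states. Most 5637 points lie near the line, and the OVCAR8 genes that rose lie below it, WARS farthest with 0.51 in NR and 1.73 in parental cells.

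NR and parental cells were also compared at the same treatment. These comparisons share libraries with the drug comparisons above. In 5637 without drug, 3 of 19 cytosolic genes were higher in NR cells and 7 lower. Of all genes 56.5% were called there, 28.4% higher and 28.0% lower. With neratinib 5 were higher and 8 lower, where 58.0% of all genes were called, 28.8% higher and 29.2% lower. MARS was -0.72 ± 0.06 without drug and -0.86 ± 0.06 with it, and CARS was 0.59 ± 0.05 and 0.13 ± 0.05 (log2 NR over parental ± SE, without drug first). RARS stood at -0.50 ± 0.06 and -0.19 ± 0.06, SARS at -0.12 ± 0.05 and -0.48 ± 0.05, and GARS at -0.26 ± 0.05 and -0.44 ± 0.05 in the same order. The call of CARS with neratinib was lost in 6 of the fits that left out 1 library (edgeR adjusted p up to 0.13).

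DARS and TARS, the threonine enzyme, were higher in 5637 NR cells while most cytosolic genes that passed were lower. DARS had 69.5, 86.8 and 78.4 CPM in 5637 NR cells with neratinib, 82.5, 91.5 and 81.3 CPM in NR controls, 61.1, 61.0 and 64.0 CPM in parental cells with neratinib and 65.7, 63.3 and 63.6 CPM in parental controls. TARS had 466, 567 and 529.7 CPM in 5637 NR cells with neratinib, 304, 341 and 293 CPM in NR controls, 422, 419 and 430.5 CPM in parental cells with neratinib and 234, 233 and 225 CPM in parental controls. For both genes every NR library lay above every parental library of the same treatment. The log2 values without drug were 0.39 ± 0.07 for DARS and 0.42 ± 0.07 for TARS, and with it 0.30 ± 0.07 and 0.26 ± 0.06 (NR over parental, edgeR adjusted p of 4.5e-05 to 0.0027).

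Among mitochondrial genes in 5637, 8 of 15 were lower and 3 higher in NR cells without drug, and 5 were lower and 6 higher with it. Of all genes 28.0% were lower and 28.4% higher without drug, and 29.2% and 28.8% with it. SARS2, the mitochondrial serine enzyme, had 2.68, 2.05 and 2.04 CPM in NR cells with neratinib, 2.12, 2.58 and 2.84 CPM in NR controls, 4.46, 3.99 and 5.35 CPM in parental cells with neratinib and 4.70, 5.74 and 4.24 CPM in parental controls. Every NR library lay below every parental library, and the log2 values were -0.97 ± 0.17 without drug and -1.05 ± 0.17 with it (edgeR adjusted p = 0.00015 and 8.1e-05). In OVCAR8 it had 4.404, 5.04 and 4.67 CPM in NR cells with neratinib, 5.71, 5.07 and 5.33 CPM in NR controls, 5.09, 4.56 and 4.45 CPM in parental cells with neratinib and 5.69, 4.58 and 6.49 CPM in parental controls, and these NR and parental groups overlapped. YARS2 was at -0.68 ± 0.06 and -0.68 ± 0.07 in 5637, and NARS2, the asparagine enzyme, was higher in NR cells, at 0.40 ± 0.07 and 0.66 ± 0.08 (without drug first). AIMP1 was higher in 5637 NR cells too, at 0.47 ± 0.10 without drug and 0.49 ± 0.10 with it, while AIMP2 stood at 0.05 ± 0.08 and 0.04 ± 0.08 and did not pass.

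In OVCAR8 without drug, 0 of 19 cytosolic genes differed between NR and parental cells by edgeR, where 9.84% of all genes were called, 4.94% higher and 4.91% lower. At an unadjusted p under 0.05, 2 were higher and 2 lower, DESeq2 called 2 and 1, and limma voom 0 and 0. MARS2, the 1 mitochondrial gene called, was higher in NR cells by 0.38 ± 0.10 (edgeR adjusted p = 0.027), a call that was lost without NR control replicate 1, 2 or 3 (edgeR adjusted p = 0.060, 0.080 and 0.11). Leaving out parental control replicate 2 made 5 cytosolic genes higher and 3 lower, with 22.8% of all genes called, and TARS, the threonine enzyme, was the highest at 0.41. When parental control replicate 1 was left out, 1 member was higher and 1 lower, and the share of all genes called is not given.

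With neratinib, OVCAR8 NR cells had 9 lower and 4 higher of 19 cytosolic genes, where 31.0% of all genes were called, 14.6% higher and 16.4% lower, with a median of -0.23, against -0.015 over all genes. WARS was lowest at -1.34 ± 0.07, followed by SARS at -0.77 ± 0.12 and AARS at -0.70 ± 0.10 (edgeR adjusted p = 1.0e-07, 0.00060 and 0.00020). RARS (0.46 ± 0.13), FARSB (0.31 ± 0.08), KARS (0.29 ± 0.08) and HARS (0.21 ± 0.08) were higher, and each of these calls was lost in at least 1 fit that left out a library, that of HARS in every such fit except those without a parental control. Of 15 mitochondrial genes 5 were higher and 0 lower, and at an unadjusted edgeR p under 0.05, in DESeq2 and in limma voom 0 were lower too, with MARS2 at 0.59 ± 0.10 and TARS2 at 0.43 ± 0.08. Without parental control replicate 2, 12 cytosolic genes were lower and 6 higher, 10 mitochondrial genes were higher, and 55.5% of all genes were called. Without parental neratinib replicate 2, 11 members were called in place of 18, and the share of all genes called is not given. Scaled by library size alone, 10 cytosolic genes were lower and 3 higher.

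**Figure D4:**
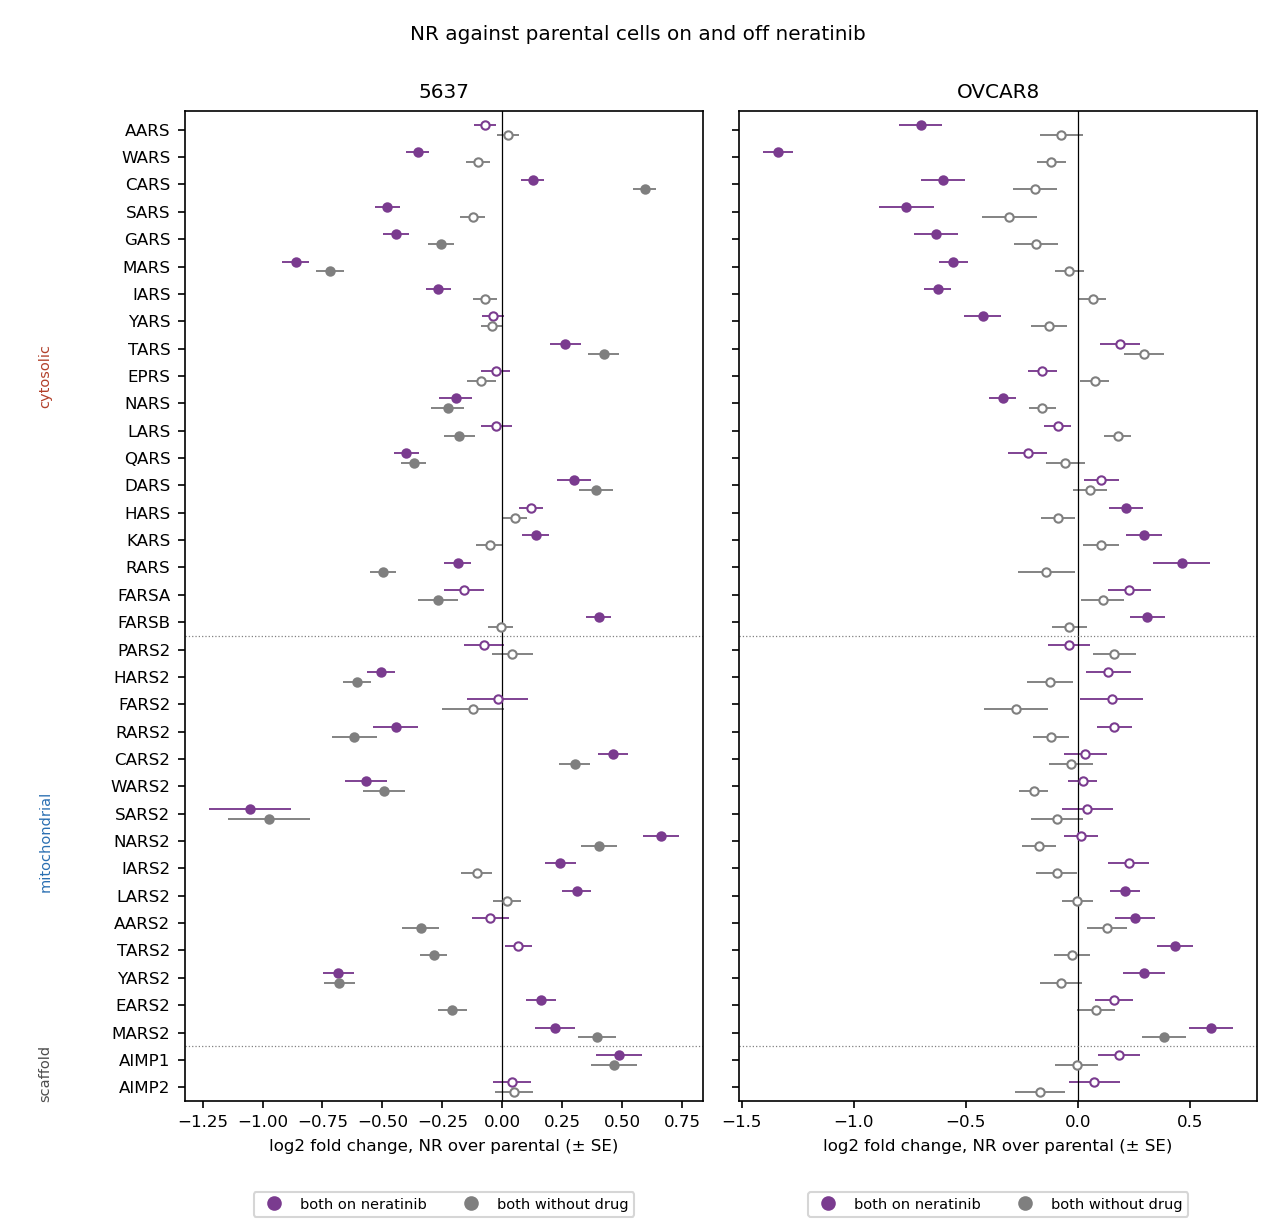
Log2 fold change of NR over parental cells (x axis, ± SE) for the 36 tested genes (rows, by class) in 5637 (left) and OVCAR8 (right), with neratinib in both states (purple) and without drug in both (grey), filled where edgeR's adjusted p was under 0.05. In OVCAR8 the grey points lie near 0 and WARS with neratinib lies at -1.34, while in 5637 MARS and SARS2 lie left of 0 in both.

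Between the lines, the parental drug effect was smaller in OVCAR8 for CARS (-0.80 ± 0.11), SARS (-0.65 ± 0.13), AARS (-0.51 ± 0.11) and TARS (-0.43 ± 0.11), and the fall of FARSB was smaller there (0.31 ± 0.10, OVCAR8 minus 5637, log2 ± SE, edgeR adjusted p of 2.9e-05 to 0.041). These were 4 lower and 1 higher of 19, where 10.3% of all genes were called, 5.46% higher and 4.83% lower. Of 15 mitochondrial genes 0 differed by edgeR, with 2 higher and 2 lower at an unadjusted p under 0.05, 2 and 1 in DESeq2, and 1 and 0 in limma voom. The doses differed, 1 µM in OVCAR8 and 600 nM in 5637. Without OVCAR8 parental control replicate 2, 6 cytosolic genes were lower and 4 higher and 18.6% of all genes were called. Without 5637 parental control replicate 1 or 2, 3 members were called, and without OVCAR8 parental control replicate 1 or 3, 8 and 9 were. Shares of all genes called in these last fits are not given.

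Parental controls of the lines differed in 10 of 19 cytosolic genes, 7 higher and 3 lower in OVCAR8, where 72.0% of all genes were called, 36.8% higher and 35.1% lower. AARS was 1.93 ± 0.08 and SARS 1.43 ± 0.10 higher in OVCAR8 on the log2 scale, and KARS stood at -0.98 ± 0.07. Of 15 mitochondrial genes 8 were higher and 4 lower, among them FARS2 at 2.17 ± 0.14, RARS2 at 1.77 ± 0.09 and HARS2 at -1.02 ± 0.08. Without OVCAR8 parental control replicate 2, where 72.8% of all genes were called, the cytosolic counts were 7 higher and 8 lower, and FARS2, whose highest library it was, stood at 1.94.

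Other genes of tRNA charging and translation were read beside the synthetases. XPOT, which exports tRNA from the nucleus, rose with the cytosolic enzymes, by 1.23 ± 0.06 in parental 5637, 0.95 ± 0.06 in 5637 NR and 1.14 ± 0.09 in parental OVCAR8 cells, and averaged 341 ± 13.2 CPM in parental 5637 cells with neratinib and 134 ± 4.35 CPM in their controls. EEF1E1, the third scaffold of the complex (AIMP3), fell as well, at -0.56 ± 0.18, -0.62 ± 0.18 and -0.71 ± 0.12 in the same 3 comparisons. ELAC2, which trims the tRNA 3′ end, fell, at -0.68 ± 0.07, -0.47 ± 0.07 and -0.55 ± 0.06. Of 14 other genes of tRNA charging, 1 (XPOT) rose and 5 fell in parental 5637, 1 and 2 in 5637 NR, and 1 (XPOT) and 4 in parental OVCAR8 cells. Over all genes 23.9% were higher and 23.5% lower in the first comparison, 18.4% and 21.1% in the next, and 16.2% and 16.3% in the last. With libraries scaled by size alone the counts of the 14 were 2 and 2, 1 and 2, and 1 and 3. In OVCAR8 NR cells 0 rose and 0 fell by edgeR (2 and 1 at an unadjusted p under 0.05, 1 and 1 in DESeq2, 0 and 0 in limma voom). There 0.642% of all genes were higher and 0.747% lower. Leaving out OVCAR8 parental control replicate 2 gave 2 rising and 5 falling in parental and 2 and 1 in NR OVCAR8 cells. Of all genes 24.3% were then higher and 24.9% lower in parental cells, and 9.39% and 11.9% in NR cells.

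Of 30 genes for mitochondrial ribosomal proteins and translation factors, 23 fell in parental 5637, 17 in 5637 NR and 20 in parental OVCAR8 cells, and 0, 1 and 0 rose. Of all genes 23.5%, 21.1% and 16.3% were lower and 23.9%, 18.4% and 16.2% higher in the same comparisons. In both parental comparisons 0 of the 30 also rose at an unadjusted edgeR p under 0.05, in DESeq2 and in limma voom. Scaled by library size alone, 18, 11 and 17 fell and 1, 3 and 0 rose. Without OVCAR8 parental control replicate 2, 21 fell and 1 rose in parental OVCAR8 cells. In OVCAR8 NR cells 0 fell and 0 rose by edgeR (1 and 0 at an unadjusted p under 0.05, 0 and 0 in DESeq2 and in limma voom), and 9 fell and 0 rose without that library. MRPL12 changed by -1.06 ± 0.19, -0.88 ± 0.19 and -0.96 ± 0.31. Cytosolic initiation and elongation factors were mixed: of 25, 7 rose and 10 fell in parental 5637, 3 and 12 in 5637 NR, and 7 and 10 in parental OVCAR8 cells. Library size alone gave 10 rising and 10 falling, 5 and 9, and 8 and 9 in the same comparisons. In OVCAR8 NR cells 0 rose and 0 fell by edgeR (1 and 1 at an unadjusted p under 0.05, 1 and 0 in DESeq2, 0 and 0 in limma voom). There 0.642% of all genes were higher and 0.747% lower. In the fit that left out OVCAR8 parental control replicate 2, parental cells had 11 rising and 11 falling genes and NR cells 5 and 3. Of all genes that fit called 24.3% higher and 24.9% lower in parental cells, and 9.39% and 11.9% in NR cells. EIF4EBP1, which restrains cap-dependent initiation, rose by 1.09 ± 0.08 in parental 5637 cells, and EIF4G1, the scaffold of the cap complex, fell, at -0.78 ± 0.05.

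Genes of the amino acid stress response were read too. Of 14, 12 rose and 1 fell in parental 5637, 11 and 2 in 5637 NR, and 12 rose in parental OVCAR8 and 6 in OVCAR8 NR cells. Over all genes, 23.9% were higher and 23.5% lower in parental 5637 cells, and 18.4% and 21.1% in 5637 NR cells. The shares were 16.2% and 16.3% in parental OVCAR8 cells, and 0.642% and 0.747% in OVCAR8 NR cells. ATF4 averaged 639 ± 8.38 CPM in 5637 NR cells with neratinib, 291 ± 12.4 CPM in NR controls, 722 ± 4.43 CPM in parental cells with neratinib and 327 ± 5.15 CPM in parental controls (SD, n = 3). Its log2 fold change was 1.04 ± 0.05 in parental 5637, 1.01 ± 0.05 in 5637 NR and 0.63 ± 0.16 in parental OVCAR8 cells, and 0.58 ± 0.16 in OVCAR8 NR cells, where it did not pass. ASNS, asparagine synthetase and a known ATF4 target, rose by 3.94 ± 0.07, 3.57 ± 0.07, 3.001 ± 0.15 and 1.72 ± 0.14 in the same 4 comparisons. Without OVCAR8 parental control replicate 2, 13 of the 14 rose in parental and 12 in NR OVCAR8 cells, and 1 fell in each. Of all genes 24.3% were then higher and 24.9% lower in parental cells, and 9.39% and 11.9% in NR cells. With all libraries, EIF2AK4, the sensor of uncharged tRNA, did not pass in any of the 4 drug comparisons (log2 -0.12 to 0.36). Without that replicate it passed in parental OVCAR8 cells, where all 14 genes did.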

How the data were processed

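RNA-seq libraries were poly(A)-selected and stranded (TruSeq), per the labels' protocols. The authors deposited 1 table of raw read counts per gene for all 24 libraries, with gene lengths. The submitters' processing notes name FastQC, STAR 2.5.3a, featureCounts 1.15.2, DESeq2 1.18.1 and hg19, with no roles. The strand setting of the counting is not given in the sources used here.

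The counts were analysed in R 4.3.3 with edgeR 4.0.16: filterByExpr, TMM scaling and the quasi-likelihood F-test, with Benjamini-Hochberg adjustment over all genes tested and a threshold of 0.05. Each line was fitted alone (12 libraries, 8 residual degrees of freedom) for comparisons within it, and both lines together (24 libraries, 16 degrees of freedom) for comparisons between them. The SE given for an edgeR log2 fold change is its absolute value divided by the square root of the test's F statistic. CPM used library totals without TMM. Counting depth was 23.8 to 48.5 M counts per library. No library pair agreed within sampling noise. Alternatives were DESeq2 1.42.0, limma voom 3.58.1, other scalings and filters, the libraries compared alone, a replicate block and leaving out each library. Scripts were tested on simulated data.

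All members could be named. Values per library are given for the members that changed most among those past the threshold in each comparison within a line, for the scaffolds, for GARS and KARS and for cytosolic genes that passed against the majority. Members and lists were chosen with earlier results of these data known. In no comparison did all 3 pairs of same-numbered dishes correlate above 0.1 (0.057 to 0.29 for the drug in parental OVCAR8 cells), so the numbers were not treated as pairs.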

Additional observations from a re-analysis of the deposited data

Results flagged for a closer look

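The drug effect differed between NR and parental 5637 cells, by the test of the difference itself, for 9 genes (log2, NR minus parental). It was lower in NR cells for CARS at -0.47, SARS at -0.36 and WARS at -0.25. It was higher for FARSB at 0.41, EARS2 at 0.37, TARS2 at 0.35, IARS2 at 0.35, RARS at 0.31 and LARS2 at 0.29.

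In OVCAR8 the same test separated NR from parental cells for 5 genes. The drug effect was lower in NR cells for WARS at -1.22, IARS at -0.69, AARS at -0.62 and MARS at -0.52, and higher for TARS2 at 0.46. Without parental control replicate 2, these were -1.19 for WARS, -0.66 for IARS, -0.76 for AARS, -0.56 for MARS and 0.37 for TARS2.

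The parental drug effect differed between the lines for 5 genes (log2, OVCAR8 minus 5637), with CARS at -0.80, SARS at -0.65, AARS at -0.51, TARS at -0.43 and FARSB at 0.31. These differences include OVCAR8 parental control replicate 2. In the OVCAR8 fit without it, the parental drug effect was 1.03 for CARS, 0.97 for SARS, 1.39 for AARS, 0.47 for TARS and -0.26 for FARSB. The doses differed between the lines.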

How the results depend on the processing

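Counts of called members (of 36) depended on the setting mainly in OVCAR8. The share of all genes called in these fits is not given beside them, so they cannot show a change particular to the members. DESeq2 gave 12 for the drug in NR cells (7 by edgeR), 5 for NR against parental controls (1), 11 for the difference of drug effects between states (5) and 10 for that between lines (5). Library size alone gave 2 for NR against parental controls and 11 for the difference between states. Without a filter NR against parental controls gave 0, and with 1 CPM in 3 libraries 2. The 6 libraries compared alone gave 17 for the drug in parental cells (30), 19 in NR cells, 0 for NR against parental controls and 30 for NR against parental cells on drug (18). With the replicate number as a block, NR against parental controls in OVCAR8 gave 0 in place of 1, the numbers not being shown to pair the samples. For the drug in parental OVCAR8 cells alone, all 3 dishes correlated best with their own number, a hint from the data and not the design.

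Leaving out 1 library gave 2 to 20 for the drug in OVCAR8 NR cells, 0 to 10 for NR against parental controls, 11 to 29 on drug, 4 to 22 for the difference between states and 3 to 11 for that between lines. In 5637 the ranges were 27 to 30 for the drug in parental cells, 23 to 26 in NR cells, 19 to 23 for NR against parental controls, 20 to 25 on drug and 6 to 11 for the difference between states. Calls over all genes moved as well. Without OVCAR8 parental control replicate 2, 21.3% were called in place of 1.39% for the drug in OVCAR8 NR cells. For OVCAR8 NR against parental controls 22.8% were called in place of 9.84%. The cause was not tested.

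Uncalled scaffold values near 0 changed sign. In the 5637 difference between states, AIMP2 was 0.0075 by library size, 0.0024 without a filter and -0.098 to 0.063 without 1 library, where AIMP1 was -0.054 to 0.14. AIMP2 was -0.017 to 0.10 in 5637 NR against parental controls and -0.047 to 0.11 on drug without 1 library. AIMP1 in OVCAR8 was 0.0077 by library size and -0.17 to 0.026 without 1 library under drug in parental cells, and 0.0065 by voom, 0.046 by library size and -0.080 to 0.12 without 1 library in NR against parental controls. Of 2166 alternative values of named members, 89 lost their call, 12 gained one and 17 changed sign. VARS and VARS2 had too few counts for any test.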
